A study of Rattus norvegicus with 2 samples.

Results

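Neurotrophins and the ligands of the GDNF family keep sensory neurons alive and tune their sensitivity, and their receptors divide these neurons into classes. Neurotrophins bind a Trk receptor tyrosine kinase and the shared receptor p75NTR. Ligands of the GDNF family first bind a GFRα co-receptor on the cell surface, which then engages the receptor tyrosine kinase RET. In the dorsal root ganglion (DRG), non-peptidergic nociceptors are known for RET, and large touch and muscle afferents for TrkB and TrkC. The genes described here code for TrkB (Ntrk2), TrkC (Ntrk3), p75NTR (Ngfr), RET (Ret), 3 co-receptors (Gfra1, Gfra2 and Gfra3) and the TrkB ligand brain-derived neurotrophic factor (Bdnf). They were chosen by name, and 7 of the 8 had a row in the counts, among 30017 gene symbols. No row carried the symbol Gfra1, so this co-receptor for GDNF was not analysed here.

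The data were single-cell transcriptomes of rat DRGs, with 1 library per condition. Male Sprague-Dawley rats, 8 weeks old on arrival, received an intraperitoneal dose of streptozotocin (65 mg/kg), a toxin of pancreatic β-cells, as a model of diabetic peripheral neuropathy (DPN), or received citrate buffer (Control). After 8 weeks the L3 to L6 DRGs of both sides were taken, the ganglia of 5 rats were pooled for each library, and cells were freed with collagenase and trypsin. With 1 pool per condition, no difference between DPN and Control has a replicate check, so no test was made and every interval below covers counting error only.

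Counts of unique molecular identifiers (UMIs) were summed over cells gated by marker genes. Levels are UMIs per 1000000 UMIs of the gated cells (CPM) with a 95% exact Poisson interval in parentheses. A cell entered the satellite glial cell (SGC) gate through Fabp7 and Tyrp1, the myelinating Schwann cell (SC) gate through Prx, Mag and Cldn19, the smooth muscle gate through Myh11, the fibroblast gate through Lum and the neuron gate through Stmn2, Prph and Snap25. The Control library held 11011 barcodes and 121101966 UMIs, and the DPN library held 13168 barcodes and 115409375 UMIs. The gates held 4135 and 3012 SGCs (Control and DPN), 347 and 481 myelinating SCs, 385 and 584 smooth muscle cells, 211 and 328 fibroblasts and 186 and 701 neurons. Gates for other SCs, endothelial cells, pericytes and macrophages served for comparison. Each of the 5 gates led the others in its own marker list, but each list includes the genes of the gate, so the gate itself partly fixed this lead. The 10 neuronal markers, Stmn2, Prph and Snap25 among them, summed to 23946 and 21403 CPM in neurons against 259 and 395 CPM in SGCs. For 15 neuronal genes outside the gate, the level in SGCs was at most 2.998% (Control) and 4.25% (DPN) of that in neurons. The neuron gate was uneven in depth, with a median of 77458 UMIs per cell in Control and 970 in DPN. The 104 and 181 neurons with at least 30000 UMIs, called deep neurons here, held 97.9% and 96.9% of the UMIs of the gate, so the summed levels in neurons are mostly theirs. The libraries shared 38 barcodes.

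RET and GFRα3, the co-receptor for artemin, act together on nociceptors, and both genes had fewer UMIs per 1000000 in DPN neurons, so the 250 bases before their start sites are shown. They are RefSeq sequences of the build GRCr8, at chr4:153040557-153040806 and chr18:26600226-26600475, both on the minus strand and written 5′ to 3′. Capitals mark an E box or a GC box on either strand.
Ret: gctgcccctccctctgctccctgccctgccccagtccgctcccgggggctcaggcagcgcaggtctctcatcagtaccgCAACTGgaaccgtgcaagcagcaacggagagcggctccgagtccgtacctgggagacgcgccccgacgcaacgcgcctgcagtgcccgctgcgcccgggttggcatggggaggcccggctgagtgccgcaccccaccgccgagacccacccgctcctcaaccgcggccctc
Gfra3: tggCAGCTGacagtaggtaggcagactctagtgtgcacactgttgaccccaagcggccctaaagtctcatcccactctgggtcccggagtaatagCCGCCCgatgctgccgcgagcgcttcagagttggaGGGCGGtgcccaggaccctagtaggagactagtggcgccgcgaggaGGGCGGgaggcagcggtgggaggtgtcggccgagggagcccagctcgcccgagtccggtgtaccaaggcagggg
The Ret window held 1 E box (letters CANNTG) and no GC box, and the Gfra3 window held 1 E box and 3 GC boxes (letters GGGCGG). Over the 33465 RefSeq windows of the same length, 65.5% held an E box and 30.5% a GC box. Neither window held the letters CCAAT of a CCAAT box, which 34.0% of the windows held. Neither held a TATA box (letters TATAAA), as 12.9% of the windows did. Nor did either hold a cAMP response element (letters TGACGTCA) or an AP-1 site (letters TGANTCA), which 1.59% and 6.34% of the windows held. G and C made up 72.8% of the Ret window and 66% of the Gfra3 window, against a median of 51.2% over all windows. Of the 8 genes, 4 had a window (Ret, Gfra1, Gfra3 and Bdnf).

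The genes fell into separate territories. Ret, Gfra3, Ngfr, Gfra2 and Bdnf each had their highest level in neurons, Ntrk2 in SGCs and Ntrk3 in smooth muscle cells, in both libraries and over all 9 gates. In each of these cases the leading type stood above the next by more than counting error.

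**Figure D1:**
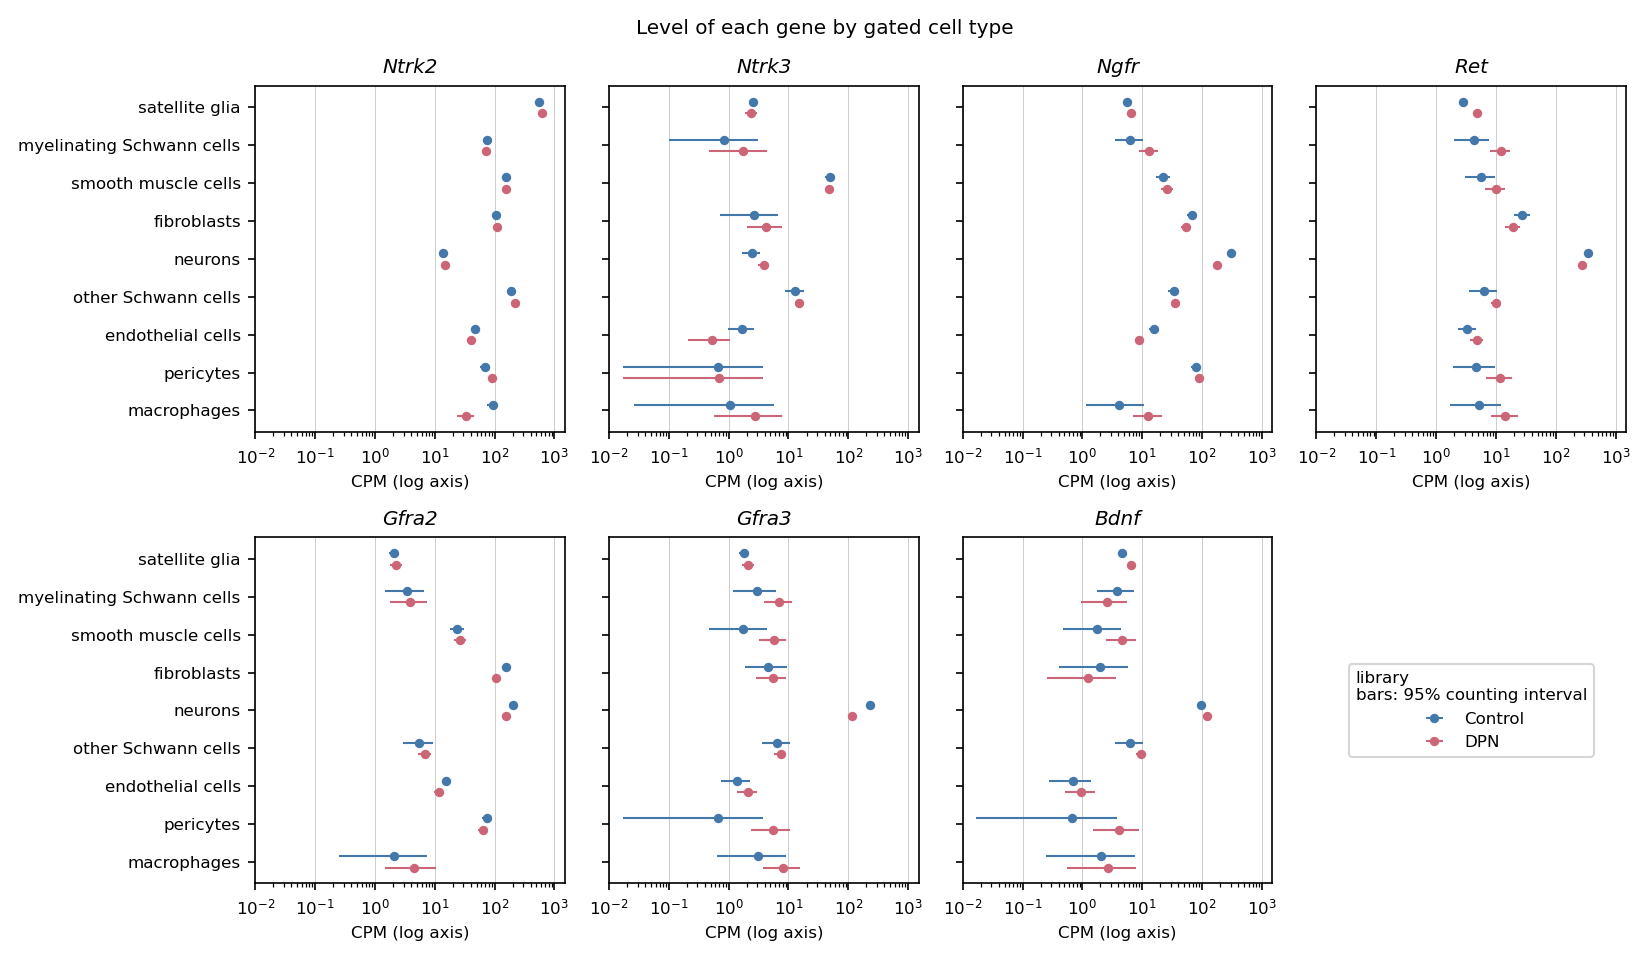
Level of each gene (CPM, log axis) in 9 gated cell types of the Control library (blue) and the DPN library (red), with bars for the 95% counting interval. Ntrk2 peaks in SGCs at 551 and 611 CPM, Ntrk3 in smooth muscle cells at 49.2 and 48.4 CPM, and the other 5 genes in neurons.

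Ntrk2 was foremost a gene of SGCs, the glia that wrap each neuronal cell body. It was at 551 CPM (545 to 557) in Control and 611 CPM (602 to 619) in DPN, a DPN over Control ratio of 1.11 (1.09 to 1.13). At least 1 Ntrk2 UMI was found in 97.3% and 95.2% of the SGCs. After thinning each cell to 1000 UMIs the shares were 40.9% and 41.5%. Other SCs followed with 186 and 221 CPM, smooth muscle cells with 156 and 156 CPM, fibroblasts with 106 and 109 CPM and myelinating SCs with 73.6 and 71.9 CPM. The ratios in smooth muscle cells, fibroblasts and myelinating SCs were 1.004 (0.872 to 1.16), 1.03 (0.841 to 1.26) and 0.977 (0.785 to 1.22), so that 1 lay within each interval. Neurons had the lowest level of all 9 types, 13.9 CPM (12.04 to 15.9) in Control and 15.1 CPM (13.5 to 16.8) in DPN. This was 2.52% and 2.47% of the level in SGCs, beside medians of 2.17% and 2.60% for 12 glial genes. The medians for these 12 genes were 20.9% and 19.7% in fibroblasts and 18.8% and 18.4% in smooth muscle cells. The part of SGC RNA in the Ntrk2 levels of fibroblasts and smooth muscle cells was not tested. In macrophages Ntrk2 was at 94.3 and 33.4 CPM (ratio 0.354, 0.235 to 0.524), from 91 and 37 UMIs. The 7 SGC markers moved with it in that gate, at a summed 628 and 218 CPM with 1 marker at 0 in each library, and their part in the difference was not tested. Counts from the 3′ end do not separate the kinase form of TrkB from the truncated form that glia are known to make.

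Ntrk3 marked smooth muscle cells. Its level there was 49.2 CPM (40.6 to 59.1) in Control and 48.4 CPM (40.6 to 57.2) in DPN, a ratio of 0.983 (0.761 to 1.27). A UMI was found in 24.2% and 18.8% of the smooth muscle cells, and no cell held more than 3. After thinning, 4.68% and 4.79% of smooth muscle cells held an Ntrk3 UMI, against 0.314% and 0.299% of SGCs. Other SCs had 12.7 and 15.2 CPM, and no other type exceeded 4.16 CPM. Ntf3, the gene for the TrkC ligand neurotrophin-3, was at 46.6 and 31.8 CPM (ratio 0.682, 0.510 to 0.910) in the same gate. An Ntf3 UMI was present in 31.2% (22.0 to 41.6) of the Control smooth muscle cells with an Ntrk3 UMI and in 17.5% (13.3 to 22.3) of those without one. In DPN these shares were 20.9% (13.7 to 29.7) and 10.8% (8.12 to 13.9). Cells with an Ntrk3 UMI were also deeper, with median UMIs of 5918 against 4964 in Control and 4650.5 against 4107.5 in DPN, and the part of depth in this difference was not tested.

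The deep neurons of these libraries had few UMIs of Ntrk2 or Ntrk3. None of the 104 Control and 181 DPN deep neurons reached 1 Ntrk3 UMI per 10000 UMIs, which allows shares of up to 3.48% and 2.02% (exact binomial limits). The highest values in a cell were 0.370 and 0.574 per 10000. For Ntrk2, 2 and 3 deep neurons reached 1 per 10000. Pvalb, a gene of muscle afferents, had 2 and 1 UMIs over all deep neurons. Nefh, a neurofilament gene listed with Pvalb as a marker of large neurons, went the other way. It reached 1 per 10000 in 65 and 130 deep neurons, at 208 and 239 CPM. Scn10a, which codes for a nociceptor sodium channel, reached 1 per 10000 in 88 and 151 of them. The paper names as a limit that some cells, such as large-diameter neurons, were too big for capture. It also proposes that some of its neuron sub-types might be neurofilament neurons, with Ntrk2 and Cacna1h among their markers. In the whole gate Ntrk3 had 36 and 82 UMIs, or 2.42 CPM (1.70 to 3.36) in Control and 3.86 CPM (3.07 to 4.79) in DPN, a ratio of 1.59 (1.06 to 2.43).

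Ngfr, Gfra3, Ret and Gfra2 had fewer UMIs per 1000000 in DPN neurons than in Control neurons, and Bdnf more. A gene was called when it had at least 50 UMIs over both libraries in a gate and differed at least 1.5 times, with a counting interval off 1. In neurons all 7 genes had enough UMIs. Of these, 1 (Ntrk3) was called higher and 2 (Ngfr and Gfra3) were called lower, while 23.2% of the 11013 genes tested were called higher and 2.2% lower. The median log2 ratio in neurons was -0.34 over the 7 genes, and over all genes tested it was 0.11.

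**Figure D2:**
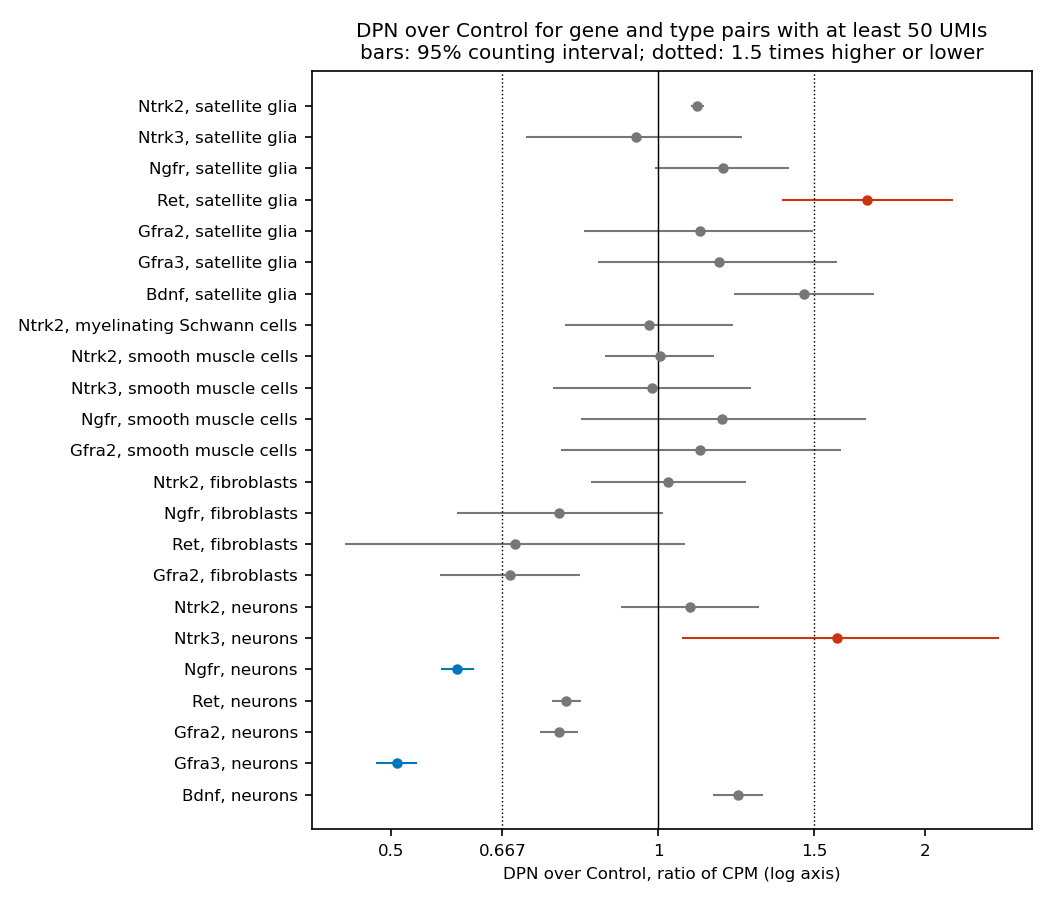
DPN over Control ratio of CPM (log axis) for the 23 pairs of gene and gated type with at least 50 UMIs, with bars for the 95% counting interval and dotted lines at 1.5 times higher and lower. Ret in SGCs and Ntrk3 in neurons were called higher, and Ngfr and Gfra3 in neurons lower.

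Ngfr, whose product binds all neurotrophins, was at 305 CPM (296 to 314) in Control and 181 CPM (175 to 187) in DPN, a ratio of 0.593 (0.568 to 0.620). Gfra3 was at 229 CPM (222 to 237) in Control and 116 CPM (112 to 121) in DPN, a ratio of 0.507 (0.481 to 0.534) and the lowest of the 7 genes in neurons. Ret was at 346 CPM (336 to 355) in Control and 272 CPM (265 to 279) in DPN, a ratio of 0.788 (0.758 to 0.818) that was not called. It was called lower with a mitochondrial limit of 10% (0.551), within 4 median absolute deviations (MADs) of UMIs and genes (0.621) and with each cell of the gate weighted the same (0.485). The MAD filter has an upper limit on UMIs. It left 82 of the 186 Control and 519 of the 701 DPN neurons, in a gate where 104 and 181 were deep. Gfra2, which codes for the co-receptor for neurturin, was close to Ret in its ratio. It was at 202 CPM (194 to 209) in Control and 156 CPM (150.4 to 161) in DPN, a ratio of 0.772 (0.735 to 0.812), or 0.497 and called lower with each cell of the gate weighted the same. Bdnf was at 97.6 CPM (92.6 to 103) in Control and 120.0 CPM (115 to 125) in DPN, a ratio of 1.23 (1.15 to 1.31), which was 0.949 (0.890 to 1.01) with each cell weighted the same and 0.371 (0.183 to 0.775) with thinned cells. Among 15 other neuronal genes, such as Calca, Tac1 and Nefm, the ratios in neurons ran from 0.727 to 1.94 with a median of 0.974, so the ratios of Ngfr and Gfra3 lay below all of them. Equal weights and thinning count shallow cells as much as deep ones. The shallowest depth class, from 500 UMIs, held 40 of 186 Control and 358 of 701 DPN neurons. Apoe, among the glial genes, was there at 14585 and 16902 CPM, against 853 and 451 CPM in deep neurons. Hba-a2, a red blood cell gene, was there at 0 and 951 CPM. The part of RNA from other cells in the ratios with equal weights, thinned cells or the MAD filter was not tested. In the deep neurons alone the ratios were 0.597 for Ngfr, 0.514 for Gfra3, 0.794 for Ret, 0.777 for Gfra2 and 1.25 for Bdnf. The Ntrk3 ratio there was 1.45 (0.958 to 2.24), which ended its call.

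The deep neurons allowed the genes to be read cell by cell, in UMIs per 10000 UMIs of a cell. They were split by Calca, the gene for the neuropeptide CGRP, at 10 per 10000, a value chosen after the levels had been seen. Calca-high cells were 62 of 104 (59.6%, 49.5 to 69.1) in Control and 111 of 181 (61.3%, 53.8 to 68.5) in DPN, and 16 and 21 cells lay within a factor of 2 of this value. Gfra3 and Ngfr sat mostly in the Calca-high cells and Gfra2 in the Calca-low cells. In Control the median of Gfra3 was 3.47 in Calca-high and 0 in Calca-low cells, that of Ngfr was 3.71 and 0.720, and that of Gfra2 was 0.0514 and 2.62. Ret was present in both classes, with medians of 2.11 and 4.25. Bdnf had medians of 0.856 and 0.391.

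Between the libraries Gfra3 was lower in the Calca-high cells of DPN. There it was at 369 CPM in Control and 173 CPM in DPN, a ratio of 0.469 (0.443 to 0.496), whereas in Calca-low cells it was at 37.6 and 40.6 CPM, a ratio of 1.08 (0.910 to 1.28). The Calca-high cells were not alike in make-up in the libraries. Gfra3 was at 1 or more per 10000 in 51 of 62 Control and 72 of 111 DPN Calca-high cells, with medians of 4.03 and 2.30 among those cells, which were picked by that level. Ret at 1 or more with Gfra3 under 0.2 was found in 1 of 62 Control and 17 of 111 DPN Calca-high cells, values chosen after the cells had been seen, and the part of these cells in the lower level was not tested. Ngfr had ratios of 0.574 (0.548 to 0.602) in Calca-high and 0.731 (0.650 to 0.823) in Calca-low cells. Ret had ratios of 0.645 (0.606 to 0.687) and 0.903 (0.860 to 0.948). Gfra2, in the Calca-low cells that held most of it, was at 452 and 353 CPM, a ratio of 0.780 (0.740 to 0.821), although its median per cell there was 2.62 in Control and 2.97 in DPN. Bdnf was higher in DPN in both classes, with ratios of 1.12 (1.04 to 1.21) in Calca-high and 1.63 (1.44 to 1.86) in Calca-low cells. These intervals treat UMIs as independent and leave out the spread between cells, which was wide. Over all deep neurons Gfra3 ran from 0 to 10.49 with a median of 1.34 in Control and from 0 to 8.15 with a median of 0.596 in DPN, so the cells of both libraries overlapped. When each deep neuron was given the same weight, the ratio was 0.556 for Gfra3, 0.626 for Ngfr, 0.726 for Ret, 0.779 for Gfra2 and 1.22 for Bdnf.

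**Figure D3:**
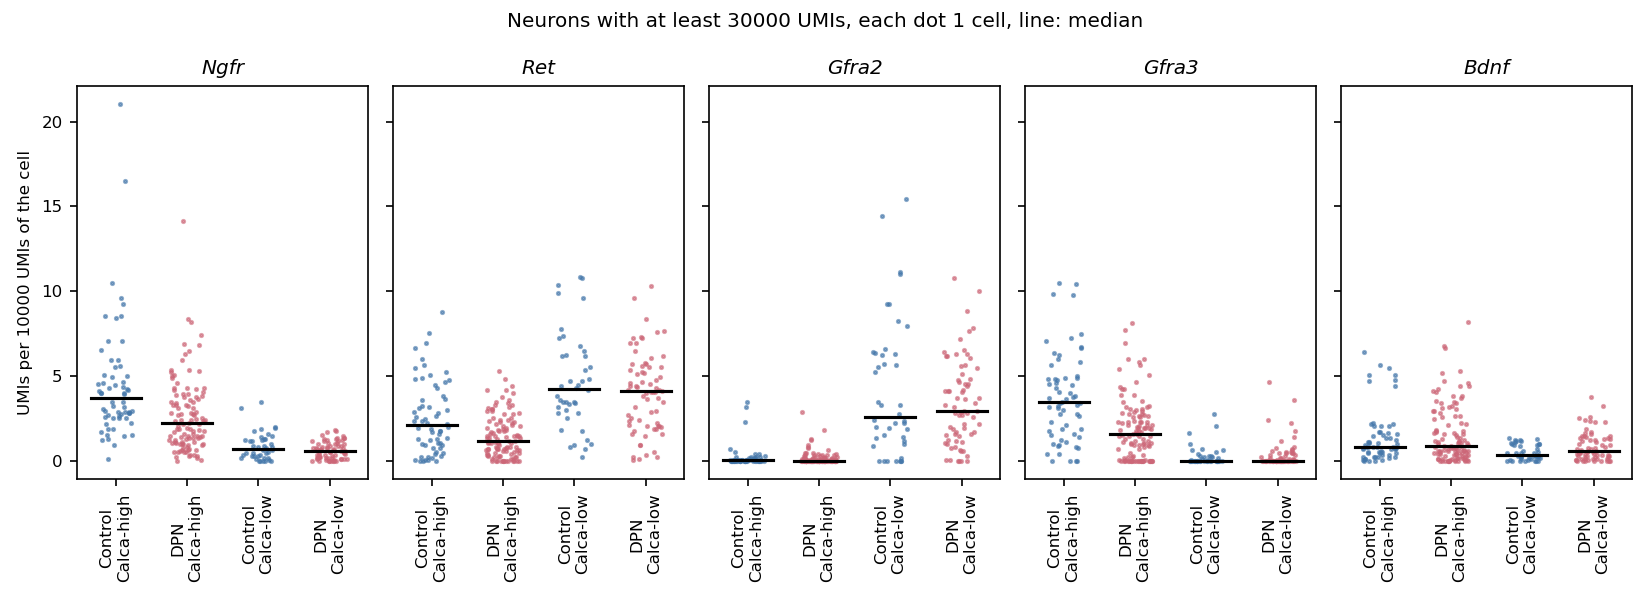
UMIs per 10000 UMIs in single neurons with at least 30000 UMIs, in Calca-high and Calca-low cells of the Control (blue) and DPN (red) libraries, with a black line for the median. In Calca-high cells the medians of Gfra3 and Ngfr are 3.47 and 3.71 in Control and 1.63 and 2.22 in DPN.

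RET needs a co-receptor to bind a ligand, so the genes were paired within cells, with a cell counted as positive at 1 UMI per 10000 or more. Ret was positive in 83 of 104 Control (79.8%, 70.8 to 87.0) and 126 of 181 DPN deep neurons (69.6%, 62.4 to 76.2). Of the Control deep neurons, 26.0% had Ret with Gfra2 alone, 37.5% (28.2 to 47.5) had Ret with Gfra3 alone, 5.77% had all 3 genes and 10.6% had Ret with neither. In DPN these shares were 27.6%, 21.5% (15.8 to 28.3), 4.42% and 16.0%. Gfra1 had no row in the counts, so cells with Ret and neither gene cannot be read as lacking a co-receptor. The intervals of the 2 libraries overlapped for each pattern, and came closest to parting for Ret with Gfra3 alone. Gfra2-positive cells nearly always held Ret, in 33 of 36 cells in Control and 58 of 62 in DPN. Gfra3-positive cells held Ret in 45 of 55 (81.8%, 69.1 to 90.9) and 47 of 79 cells (59.5%, 47.9 to 70.4). Since a positive cell was defined by level, these shares move with the levels of Ret and Gfra3 themselves.

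**Figure D4:**
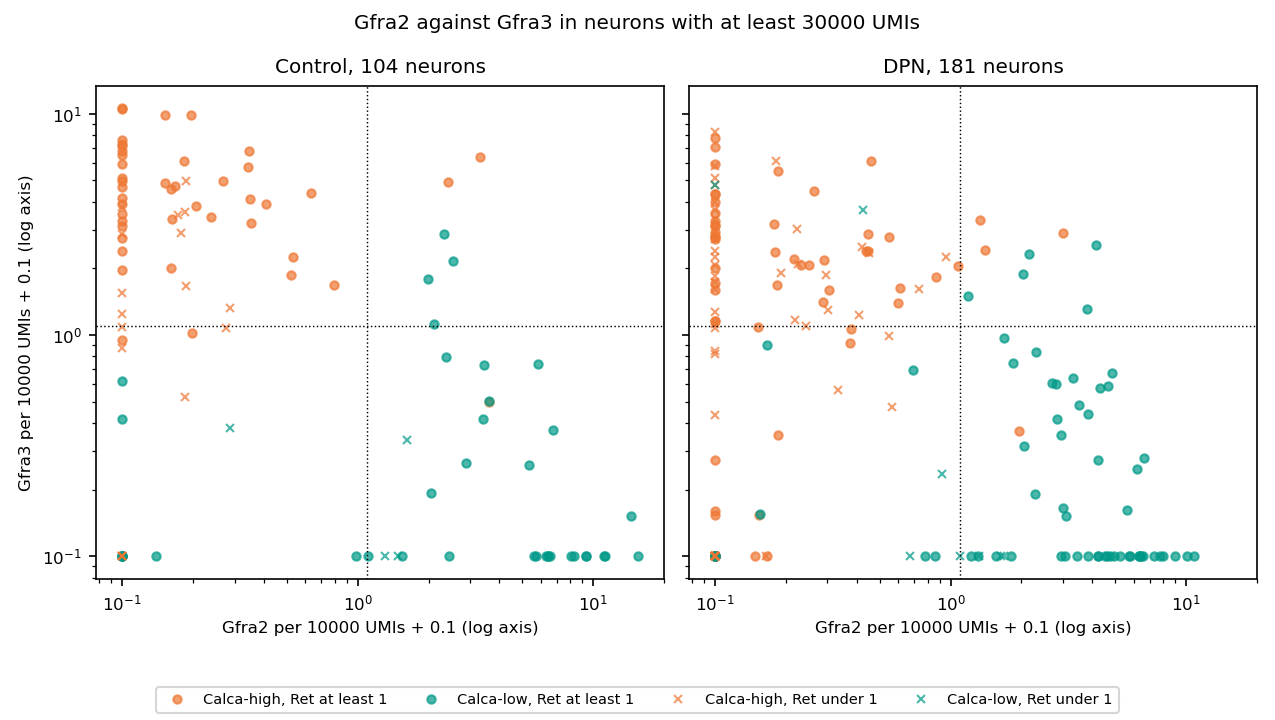
Gfra2 against Gfra3 (UMIs per 10000 UMIs plus 0.1, log axes) in each deep neuron of the Control and DPN libraries, with colour for Calca-high and Calca-low cells, filled dots for cells with Ret at 1 per 10000 or more and crosses for the others. Dotted lines mark 1 per 10000, and 6 Control and 8 DPN neurons with Ret lie above both.

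Across the deep neurons of each library, Gfra2 and Gfra3 ran against each other, with Spearman's rho of -0.442 and -0.334 (Control and DPN). Ngfr ran against Gfra2 (-0.659 and -0.485), and Ret ran with Gfra2 (0.325 and 0.570). Bdnf ran weakly with Gfra3 (0.345 and 0.387). These values describe 104 and 181 cells, which share a library and its preparation. Over 18 points, each a gated type in 1 library, the genes most like each member were ranked among 11285 genes by Pearson's r of log2(CPM + 1), a description with no test. Ret was most like Rab3a, Tmem130 and Rgs7 (r of 0.979, 0.978 and 0.975), Gfra3 most like Galnt14, Fam131b and Fkbp1b (0.974, 0.972 and 0.971) and Bdnf most like Pcsk2, Rtn1 and Elavl3 (0.973, 0.969 and 0.966). Ngfr was most like S100a11, Cacna1a and Ypel4 (0.936, 0.930 and 0.917) and Gfra2 most like H2afy2, Galr2 and Plac9 (0.951, 0.941 and 0.940). Outside neurons, Ntrk2 was most like Nkain4, Mmd2 and Pecr (0.946, 0.943 and 0.940) and Ntrk3 most like Slc4a3, Slc22a3 and Cnn1 (0.833, 0.821 and 0.812), of which Cnn1 codes for a calponin of smooth muscle.

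After neurons, Gfra2 was highest in fibroblasts and Ngfr in pericytes, followed by fibroblasts, which lay within counting error of pericytes in Control and below them in DPN. Gfra2 in fibroblasts was at 154 CPM (135 to 175) in Control and 105 CPM (92.2 to 118) in DPN, and 59.2% and 40.9% of the cells held a UMI. Its ratio of 0.680 (0.567 to 0.816) fell just short of a call. It was called lower with cells in exactly 1 of the 5 gates (0.662), within 4 MADs of UMIs and genes (0.664) and with median-ratio scaling (0.592), and was 1.17 (0.690 to 2.05) with thinned cells. Pericytes had 73.5 and 64.6 CPM of Gfra2. Ngfr in fibroblasts was at 68.7 CPM (56.2 to 83.3) in Control and 53.2 CPM (44.4 to 63.2) in DPN, a ratio of 0.774 (0.593 to 1.01), and in pericytes it was at 79.6 and 89.7 CPM. Ret in fibroblasts was at 27.8 CPM (20.01 to 37.5) in Control and 19.1 CPM (14.0 to 25.5) in DPN, a ratio of 0.689 (0.443 to 1.07) from 42 and 46 UMIs. In fibroblasts 4 genes had enough UMIs (Ntrk2, Ngfr, Ret and Gfra2), and 0 were called in either direction, while 25.7% of the 6382 genes tested were called higher and 3.93% lower. The median log2 ratio in fibroblasts was -0.45 over these 4 genes, and over all genes tested it was 0.20. A UMI of Ngfr was found in 37.6% (29.1 to 46.7) of Control fibroblasts with a Gfra2 UMI and in 19.8% (11.96 to 29.8) of those without, and in 38.1% (29.8 to 46.8) and 20.6% (15.2 to 27.0) in DPN. The cells with Gfra2 were deeper, with median UMIs of 7584 against 5210.5 in Control and 7311.5 against 5632 in DPN, and the part of depth was not tested.

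Free RNA can add UMIs to any droplet, so the levels outside neurons were set against 15 neuronal genes that took no part in the gates. In fibroblasts these genes were at 0.532% to 7.93% of their level in neurons in Control and at 0.693% to 8.46% in DPN. Gfra2 stood at 76.4% and 67.3% of its neuronal level there and Ngfr at 22.5% and 29.4%, above all 15 genes. Ret stood at 8.03% and 7.02%, just above the range in Control and within it in DPN. Rab3a set the top of this range in both libraries, and the medians of the 15 genes were 1.19% and 2.78%. Gfra3 (2.02% and 4.65%) and Bdnf (2.03% and 1.04%) lay within the range in both. In smooth muscle cells the range was 0.694% to 5.69% in Control and 2.43% to 9.68% in DPN, and Gfra2 (11.8% and 17.0%) and Ngfr (7.35% and 14.6%) lay above it.

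**Figure D5:**
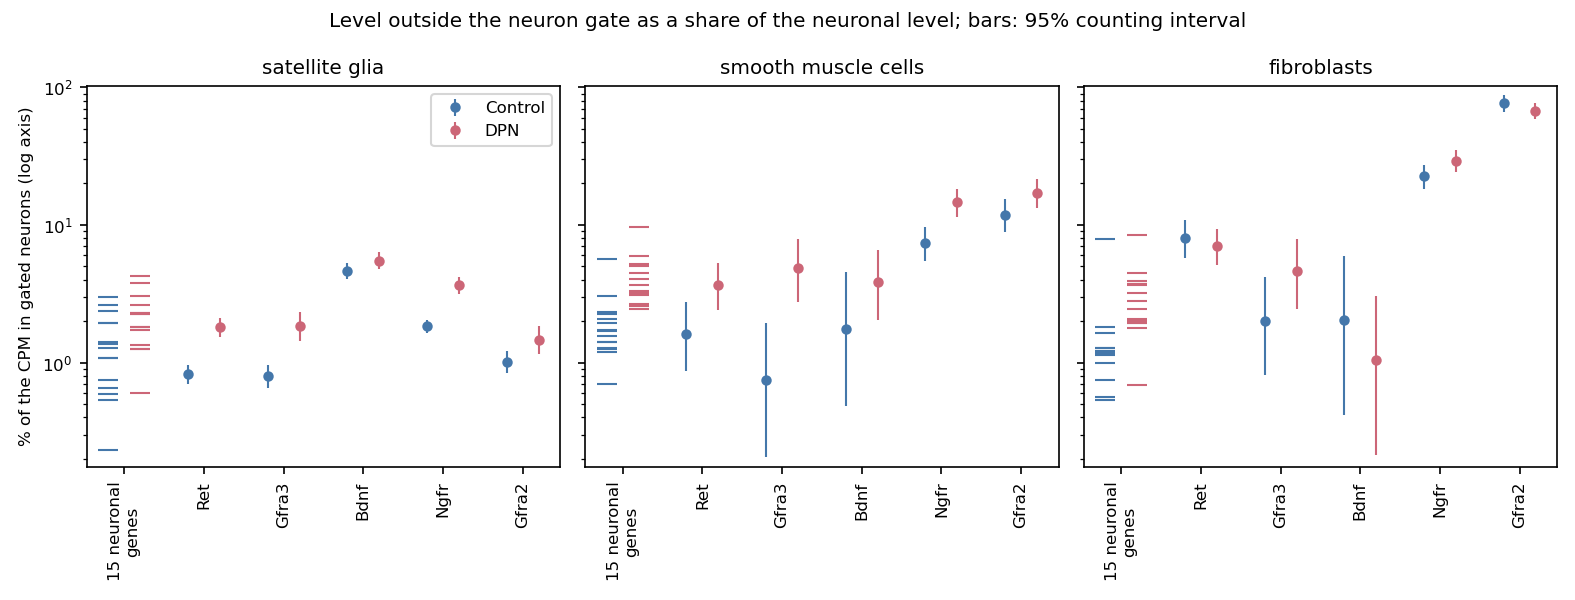
Level in SGCs, smooth muscle cells and fibroblasts as a percentage of the CPM in gated neurons of the same library (log axis), for 15 neuronal genes and 5 genes of the set with their 95% counting intervals, in Control (blue) and DPN (red). Gfra2 and Ngfr stand above the neuronal genes in fibroblasts and smooth muscle cells and Bdnf in SGCs, whereas Ret and Gfra3 lie among them in SGCs.

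In SGCs all 7 genes had enough UMIs, and 1 was called higher (Ret) and 0 lower, while 27.2% of the 11865 genes tested were called higher and 2.43% lower. Ret had 166 and 166 UMIs, or 2.86 CPM (2.44 to 3.32) in Control and 4.92 CPM (4.20 to 5.73) in DPN, a ratio of 1.72 (1.38 to 2.15). This was 0.826% and 1.81% of its level in neurons, within the range of 0.234% to 2.998% in Control and 0.602% to 4.25% in DPN for the 15 neuronal genes, and the part of free RNA in it was not tested. Of these 15 genes 14 were above 1 in their DPN over Control ratio in SGCs and 10 were called higher, with a median ratio of 1.73. In the 1396 Control and 573 DPN SGCs with no UMI of Stmn2, Prph or Snap25, a selection made after seeing the data, the Ret ratio was 1.29 (0.712 to 2.25) and its call ended. Doubled gate thresholds also ended it (1.49). The ratios of Gfra2, 1.11 (0.826 to 1.497), Gfra3, 1.17 (0.855 to 1.59), Ngfr, 1.18 (0.992 to 1.41), and Ntrk3, 0.943 (0.710 to 1.24), in SGCs had intervals that hold 1. The median log2 ratio in SGCs was 0.23 over the 7 genes, and over all genes tested it was 0.21.

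Bdnf in SGCs stood apart from the neuronal genes. It had 263 and 223 UMIs, or 4.52 CPM (3.99 to 5.10) in Control and 6.61 CPM (5.77 to 7.54) in DPN, a ratio of 1.46 (1.22 to 1.75) that was not called. It was called higher with doubled gate thresholds and in the SGCs with no UMI of Stmn2, Prph or Snap25 (1.92). With a mitochondrial limit of 10% the ratio was 0.915. The level of Bdnf in SGCs was 4.64% and 5.51% of that in neurons, above all 15 neuronal genes in both libraries. A few cells held most of it, since the top 1% of SGCs held 55.5% of its UMIs in Control and 54.7% in DPN, against 27.1% and 25.3% for Ret. In 10 Control and 9 DPN SGCs there were at least 5 Bdnf UMIs, a number chosen after seeing the data, with up to 11 and 13 in a cell, and none of these cells passed another gate. Their Ntrk2 level was 503 CPM (409 to 613) in Control and 624 CPM (488 to 786) in DPN, against 551 CPM and 612 CPM in SGCs without a Bdnf UMI. Their Calca level was 66.8 CPM (35.5 to 114) and 78.0 CPM (35.7 to 148), against 36.3 CPM and 64.8 CPM in SGCs without one. No Ret UMI was found in them. Other SCs had 6.35 CPM of Bdnf in Control and 9.57 CPM in DPN, above SGCs by more than counting error in DPN only.

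Fewer of the genes had enough UMIs in myelinating SCs and smooth muscle cells than in SGCs and neurons. In myelinating SCs 1 gene (Ntrk2) had enough UMIs, with 0 called, while 20% of the 6607 genes tested were called higher and 5.16% lower. In smooth muscle cells 4 genes (Ntrk2, Ntrk3, Ngfr and Gfra2) had enough UMIs, with 0 called, while 20.1% of the 7170 genes tested were called higher and 3.89% lower. Ngfr there was at 22.4 and 26.5 CPM (ratio 1.18, 0.817 to 1.71) and Gfra2 at 23.7 and 26.5 CPM (ratio 1.12, 0.777 to 1.61). Over the 5 gates, 23 of 35 pairs of gene and type had enough UMIs, with 2 called higher and 2 lower.

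Most other ligands had few UMIs in the 5 gates. Gdnf had 57 and 11 UMIs in SGCs, or 0.980 and 0.326 CPM (ratio 0.332, 0.157 to 0.641). Nrtn, the gene for neurturin, was at 7.07 and 12.4 CPM (ratio 1.76, 1.40 to 2.23) in neurons, at 3.32 and 2.73 CPM (ratio 0.821, 0.634 to 1.06) in SGCs and at 28.0 and 21.9 CPM (ratio 0.780, 0.542 to 1.12) in smooth muscle cells. Gdf15, a distant relative of GDNF that signals through GFRAL and RET, was at 13.0 and 12.1 CPM in SGCs, 36.7 and 40.6 CPM in smooth muscle cells and 18.5 and 14.96 CPM in fibroblasts. Its highest level lay outside the 5 gates, in macrophages, at 188 and 124 CPM (ratio 0.659, 0.524 to 0.827), and in endothelial cells it was at 33.7 and 21.5 CPM (ratio 0.637, 0.543 to 0.747). Pspn, the gene for persephin, was at 0.791 and 0.948 CPM in SGCs. Of the 2 other neurotrophin and 5 GDNF family ligands listed, Nrtn was called higher in neurons and Gdnf lower in SGCs.

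Of 7 other neurotrophin receptors and co-receptors, 7 had enough UMIs in SGCs, with 0 called higher and 0 lower. In myelinating SCs 4 had enough UMIs and 1 was called higher, Sorcs1, of the sortilin family, at 36.8 and 74.0 CPM (ratio 2.01, 1.55 to 2.64). In neurons Sorcs1 was at 0.269 and 1.84 CPM. In neurons 6 had enough UMIs and 1 was called higher, Nradd, a relative of p75NTR, at 3.77 and 7.30 CPM (ratio 1.94, 1.42 to 2.68). Sort1, the gene for the sortilin that partners p75NTR on proneurotrophins, was at 34.0 and 38.0 CPM in neurons, 25.3 and 27.9 CPM in SGCs and 84.6 and 74.5 CPM in smooth muscle cells. Sorcs2 was at 115 and 146 CPM (ratio 1.27, 1.22 to 1.32) in SGCs, Sorcs3 at 22.9 and 27.0 CPM in neurons, Lingo1 at 33.7 and 29.3 CPM in neurons and Rtn4r had 177 and 223 UMIs in neurons, with no call. Among other GDNF family receptors, Sdc3, which codes for a heparan sulfate proteoglycan, was called lower in neurons at 92.1 and 60.0 CPM (ratio 0.652, 0.604 to 0.704). Ncam1, an alternative receptor for GDNF, was at 96.3 and 131 CPM (ratio 1.36, 1.31 to 1.42) in SGCs and was called in none of the 5 gates.

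Among the adaptors, feedback and target genes and p75NTR partners listed, all calls in the 5 gates were in the higher direction. Over all genes tested, calls were also mostly higher, at 20% to 27.2% of the genes in these gates against 2.2% to 5.16% lower. Of 25 adaptor genes, 23 had enough UMIs in SGCs, with 10 called higher (against 27.2% of all genes) and 0 lower, and their median log2 ratio of 0.56 stood beside 0.21 for all genes tested. In neurons 17 had enough UMIs, with 4 called higher, close to the 23.2% of all genes, and 0 lower, and a median log2 ratio of 0.15 beside 0.11. With the share of all genes called higher in parentheses, the counts were 6 of 11 (20%) in myelinating SCs, 3 of 10 (20.1%) in smooth muscle cells and 4 of 10 (25.7%) in fibroblasts, with 0 lower. Sos1, the exchange factor between receptor tyrosine kinases and RAS, was called higher in all 5 gates, with ratios of 1.65 in SGCs, 1.54 in myelinating SCs, 2.02 in smooth muscle cells, 2.58 in fibroblasts and 1.91 in neurons. Dok6, which codes for an adaptor of RET, was called higher in SGCs (3.102), myelinating SCs (1.77) and neurons (3.26). Grb10 was called higher in SGCs, smooth muscle cells and fibroblasts, Crk in SGCs and neurons, and Shc4, Gab1 and Kidins220 in SGCs and myelinating SCs.

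Of 16 feedback and target genes, 15 had enough UMIs in SGCs with 5 called higher and 0 lower, and 13 had enough in neurons with 4 called higher and 0 lower. The shares of all genes called higher were 27.2% and 23.2%, near these counts. In the other gates 3 of 12 (20%) in myelinating SCs, 3 of 12 (20.1%) in smooth muscle cells and 6 of 12 (25.7%) in fibroblasts were called higher, with the share of all genes in parentheses. Spred1, an inhibitor of RAS and ERK signalling, was called higher in all 5 gates, with ratios from 2.89 in myelinating SCs to 4.06 in neurons. Egr1, an immediate early gene, was at 1059 and 2112 CPM in SGCs, 1291 and 2058 CPM in myelinating SCs and 1686 and 3038 CPM in fibroblasts, and was called higher in these 3 gates. Dusp6, a phosphatase of ERK, was called higher in SGCs (1.79) and neurons (1.60), Dusp5 in smooth muscle cells and fibroblasts, Spry1 in myelinating SCs and neurons, and Atf3, an injury gene of neurons, in fibroblasts (2.31) and neurons (1.64). Of 8 partners of p75NTR, 8 had enough UMIs in SGCs and 8 in neurons. In each of these gates 1 was called higher, Traf6 (ratios of 1.81 and 1.62), and 0 lower, and this count is under the share of all genes called higher (27.2% and 23.2%). In fibroblasts 1 of 7 was called higher, Nfkb1 (1.81), named after its value was seen.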

How the data were processed

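The authors made the libraries with the 10x Genomics Chromium 3′ v3 chemistry. Per the labels the reads went through Cell Ranger and STAR, and the deposited matrices hold whole-number UMI counts per gene and barcode, not normalized. The file headers give Cell Ranger 3.1.0. The version of STAR and the build of the genome were not given in the sources used here. Identifiers with the same symbol were added together.

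Cells needed at least 1000 UMIs (neurons 500), under 20% of UMIs in symbols that begin with Mt-, and a summed level of the gate's genes of at least 12 (SGCs), 5 (myelinating SCs and fibroblasts), 2 (smooth muscle cells) or 25 (neurons) per 10000 UMIs. No doublet caller was used, and the 37 Control and 62 DPN cells in more than 1 of the 5 gates were kept in each. Counts were summed per library and gate. Shares have Clopper-Pearson intervals and ratios exact conditional binomial intervals, at 95% and for counting error only. Shares at equal depth came from cells thinned to 1000 UMIs (neurons 500). Beside the 8 genes, ligands and receptors of fixed lists were named where they had at least 50 UMIs in a gate, and genes of the other lists where they were called the same way in at least 2 gates or, failing that, the 2 with most UMIs. The genes and lists were chosen with earlier results of these data known, and some genes of the lists are not reported here. Python 3.11.15 with numpy 2.4.6, scipy 1.17.1 and pandas 2.3.3 was used. The calls were tried on simulated summed counts with counting error only. These hold no spread between cells or rats, so they cannot show how the calls fare under such spread. Other cell filters, gates, scalings, minimum counts and folds were tried as alternatives.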

Additional observations from a re-analysis of the deposited data

How the results depend on the processing

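The counts of calls and the ratios were recomputed under 14 alternative settings and 2 more added after seeing the data (neurons with at least 30000 UMIs, and cells of the other gates without neuronal UMIs). No paired analysis was possible because there is only 1 pooled library for each condition. In neurons Ngfr and Gfra3 stayed under 1 in all alternatives that gave a ratio, at 0.347 to 0.736 and 0.289 to 0.644, but Ngfr lost its call with each cell weighted the same (0.732). The lowest Gfra3 ratio, 0.289, came within 4 MADs, which left 82 of 186 Control and 519 of 701 DPN neurons. Bdnf in neurons ran from 0.371 to 1.27, the lowest with thinned cells, and was above 1 in 8 of 12. Ret and Gfra2 in neurons were not called at the settings of the text. They were called lower with each cell of the gate weighted the same (0.485 and 0.497), where shallow cells count as much as deep ones. Ret was also called lower with the mitochondrial limit of 10% and within 4 MADs. With equal weights on the deep neurons alone, the ratios of Ret and Gfra2 were 0.726 and 0.779. The 2 pairs called higher became 0 with a mitochondrial limit of 10%, with median-ratio scaling, with thinned cells and with a fold of 2. They became 1 within 4 MADs of UMIs and genes, with a minimum of 200 UMIs and with neurons of at least 30000 UMIs, and 5 with no minimum. They became 3 with doubled gate thresholds, without Ret in SGCs, and also 3 with a wider set of mitochondrial genes under the limit and with totals without mitochondrial genes. Bdnf in SGCs was among the 3 in each of these settings. The 2 called lower became 5 within 4 MADs, 4 with median-ratio scaling, 3 with cells in exactly 1 of the 5 gates, with the mitochondrial limit of 10% and with each cell weighted the same, and 0 with thinned cells and with a fold of 2. Ntrk2 in neurons, with a ratio of 1.09 at the settings of the text, was called in opposite directions. It was lower within 4 MADs (0.505) and higher, in place of Ntrk3, with each cell weighted the same (2.49). Thinning left 6 pairs with enough UMIs. The Ret ratio in SGCs was 0.976 with the mitochondrial limit of 10%, which left 216 and 127 SGCs. For Ntrk3 in thinned neurons no ratio could be given. The cause of the other changes was not tested. Over all alternatives 201 ratios stayed within the counting interval of the reported value, 57 moved beyond it and 1 (Ret in SGCs, with the mitochondrial limit of 10%) crossed 1. Of the levels, 337 stayed and 183 moved. Depth limits the values in cells with few UMIs most.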

Other observations

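Genes for enzymes that cut neurotrophin precursors, or that activate such enzymes, were also read. Plat, the gene for tissue plasminogen activator, was at 393 and 358 CPM (ratio 0.911, 0.891 to 0.931) in SGCs, 98.5 and 162 CPM (ratio 1.64, 1.36 to 1.996) in fibroblasts and 135 and 104 CPM (ratio 0.771, 0.650 to 0.914) in myelinating SCs. In fibroblasts 5 of 7 such genes had enough UMIs, with 2 called higher and 0 lower: Plat and Pcsk7 (5.29 and 17.5 CPM). In SGCs 6 had enough UMIs, with 1 called higher, Pcsk1, a prohormone convertase gene, at 87.4 and 133 CPM (ratio 1.52, 1.46 to 1.58). Pcsk1 and Pcsk7 are named after their values were seen. In neurons 6 had enough, in myelinating SCs 5 and in smooth muscle cells 4, with 0 called in these 3 gates. The shares of all genes called higher were 25.7% in fibroblasts, 27.2% in SGCs, 23.2% in neurons, 20% in myelinating SCs and 20.1% in smooth muscle cells.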
